A study of Mus musculus with 21 samples.

Results

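Axon guidance ligands and receptors were examined in neurons made from mouse embryonic stem cells. The 71 genes were taken by symbol: every gene whose symbol began with Sema, Plxn, Epha, Ephb, Efna, Efnb, Unc5 or Robo, or with Nrp or Ntn and a digit, together with Slit1, Slit2, Slit3 and Dcc. They were 71 of the 18193 genes tested. For a gene with several probe sets, the most variable one over the 21 arrays (by SD) was used. By role, 35 were ligands and 33 were receptors. The symbol rule also took 3 genes that are neither: Unc50, Unc5cl and Plxna4os1, an antisense RNA gene at the Plxna4 locus. They were kept in every count of members and were called in none of the tests.

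Growth cones steer by reading cues in their surroundings. Netrin-1 (Ntn1), secreted by the floor plate at the ventral midline, attracts axons through the receptor Dcc and repels them where Unc5 receptors are present. Slit proteins from the midline repel axons that carry Robo1 or Robo2, while Robo3 lets commissural axons approach and cross it. Semaphorins act through plexins, and the secreted class 3 semaphorins need the coreceptors Nrp1 and Nrp2. Ephrins are bound to the cell surface and signal to Eph receptors, with ephrin-A ligands pairing mainly with Epha receptors and ephrin-B ligands mainly with Ephb receptors. Dopaminergic, serotonergic and motor neurons send axons along very different routes, and commissural interneurons of the dorsal neural tube are the textbook case of midline crossing.

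RNA came from purified post-mitotic neurons and was hybridised to Affymetrix whole-genome mouse arrays, with 3 arrays labelled as biological replicates in each of 7 groups. The NesE-Lmx1a line (called here the Lmx1a line) was sampled after 10 and after 14 days with sonic hedgehog (SHH) and FGF8 and is labelled as mesencephalic dopaminergic. The NesE-Nkx2.2 line, labelled as serotonergic, was sampled after 10 days with SHH plus one of FGF8 and retinoic acid (RA), while the NesE-Olig2 line, labelled as somatic motoneurons, was taken after 8 days with SHH and RA. Wild type cells were sampled after 10 days with FGF8 and after 8 days with RA. NesE stands for the nestin enhancer, active in neural progenitors, so each factor was driven in the progenitors of the neurons measured, and the labels do not say how many clones a line came from. SHH appears in the titles of the wild type samples and is missing from their source names, and their descriptions speak of dorsal midbrain and dorsal hindbrain, so line and SHH cannot be told apart if they received none. With RA, day 10 applies to the Nkx2.2 line and day 8 to wild type and the Olig2 line, so day cannot be told apart from line there, nor from RA and FGF8 in wild type.

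Every deposited log2 value has been centred, by subtracting the median of its probe set, so a value of 0 is that median and differences between groups can be read while levels cannot. Differences are on the log2 scale, as line minus wild type, RA minus FGF8, day 14 minus day 10, Lmx1a minus Nkx2.2 line or Nkx2.2 minus Olig2 line, each with the standard error (SE) of the fit over all 21 arrays. A gene was called where its limma adjusted p was under 0.05 and its difference was 1 or more in size. Most genes shown array by array were picked for large called differences, so groups without overlap there add no support to the calls. In these bulk samples, fewer cells of a type and less RNA per cell cannot be told apart.

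The line genes followed the labels. Lmx1a stood at 8.06 to 8.33 in the Lmx1a line at day 10, against 1.90 to 3.05 in FGF8 wild type. Nkx2-2 stood at 0.13 to 1.08 in the Nkx2.2 line with FGF8, against -2.38 to -0.98 in FGF8 wild type, and Olig2 at 3.80 to 5.24 in the Olig2 line, against -0.24 to -0.18 in RA wild type. Against its label, 1 Lmx1a day 10 array (replicate 3) also had Olig2 at 4.89, while its companions had 0.58 and 0.91. The bioC hybridisation controls separated 9 arrays (batch A, -3.06 to -1.33) from 12 (batch B, -0.12 to 0.72). All 3 Lmx1a day 10 arrays fell in batch A, and 3 further groups (Lmx1a day 14, Olig2, FGF8 wild type) had their first and second replicates in it. The labelling controls were at -3.83 to -3.68 in the Lmx1a line at day 10 and at -1.80 to 2.03 in the other groups, so labelling and group cannot be told apart in comparisons with that group. Summed over the 4 floor plate markers Foxa2, Foxa1, Shh and Corin, the centred signal was 8.72 to 12.8 in the Lmx1a line at day 10, 1.13 to 6.18 and 4.28 to 11.3 in the Nkx2.2 line with FGF8 and RA, and -13.1 to -11.5 in the Olig2 line, against -11.9 to -6.13 in FGF8 and -9.70 to -3.41 in RA wild type. Summed over 5 dorsal interneuron markers it was -3.74 to 4.68 across the lines, against 14.3 to 16.9 in FGF8 and 15.2 to 18.4 in RA wild type. Summed over 5 astroglial markers it was 0.89 to 7.29 in the Nkx2.2 line with FGF8, against -7.19 to -4.85 in FGF8 wild type, and 7.31 to 9.25 in the Nkx2.2 line with RA, against -2.72 to 4.54 in RA wild type. Aqp4 and Aldh1l1, 2 of the 5, were called higher in the Nkx2.2 line with either factor. Summed over 6 mesenchymal markers it was 3.21 to 12.1 in the Nkx2.2 line with RA, against -2.07 to 21.2 in RA wild type. In the Olig2 line that sum was -4.73 to 1.00. Col1a2 and Dcn, 2 of the 6, were called lower in the Olig2 line than in RA wild type. Col1a2, Dcn and Lum were called higher in the Nkx2.2 line with RA than in the Olig2 line. Dcn was called higher in the Nkx2.2 line with FGF8 and in RA wild type, both against FGF8 wild type. It was called lower in Lmx1a than in Nkx2.2 neurons with FGF8. The part of these cell types in the results below was not tested.

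Robo3, Epha4, Slit2 and Sema3a carried much of what follows, being members whose arrays separated engineered from wild type neurons in several comparisons, so the 250 bases before their RefSeq start sites (GRCm38.p6) are shown, 5′ to 3′ on the gene's strand. Capitals mark matches to any of 5 motifs searched on both strands: the homeodomain core TAATTA, the E-box CAGCTG, the NK2-type homeodomain core CAAGTG, the nuclear receptor core AGGTCA and the TATA box TATAAA. No motif overlapped another in these windows.
Robo3, chr9:37433176-37433425, minus strand: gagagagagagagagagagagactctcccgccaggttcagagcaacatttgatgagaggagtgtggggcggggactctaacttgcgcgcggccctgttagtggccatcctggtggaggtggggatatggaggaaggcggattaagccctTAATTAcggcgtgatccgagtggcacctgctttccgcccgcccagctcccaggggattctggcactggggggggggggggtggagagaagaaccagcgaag
Slit2, chr5:47982905-47983154, plus strand: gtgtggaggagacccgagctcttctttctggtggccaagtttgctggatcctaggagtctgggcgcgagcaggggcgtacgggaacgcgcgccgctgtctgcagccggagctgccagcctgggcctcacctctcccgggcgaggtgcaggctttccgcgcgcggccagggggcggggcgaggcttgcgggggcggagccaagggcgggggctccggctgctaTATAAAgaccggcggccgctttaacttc
Epha4, chr1:77515089-77515338, minus strand: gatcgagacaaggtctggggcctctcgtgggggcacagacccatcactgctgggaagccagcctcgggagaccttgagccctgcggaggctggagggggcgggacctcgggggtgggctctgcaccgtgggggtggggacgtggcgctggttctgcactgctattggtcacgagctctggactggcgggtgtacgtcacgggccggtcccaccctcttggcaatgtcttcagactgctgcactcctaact
Sema3a, chr5:13396534-13396783, plus strand: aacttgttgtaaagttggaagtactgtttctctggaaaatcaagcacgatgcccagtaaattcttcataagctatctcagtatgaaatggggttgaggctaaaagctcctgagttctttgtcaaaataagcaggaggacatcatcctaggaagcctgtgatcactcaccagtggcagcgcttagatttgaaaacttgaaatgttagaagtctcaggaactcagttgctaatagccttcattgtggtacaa
The Robo3 window held TAATTA from 101 to 96 bases before the start, a motif found in 3.95% of the 76 windows of 60 matched members and in 4.84% of all 32851 windows. The Slit2 window held TATAAA from 28 to 23 bases before the start, found in 2.63% of member windows and 12.4% of all windows. None of the 5 motifs was found in the Epha4 and Sema3a windows. CAGCTG was in 15.8% of member windows and 13% of all, CAAGTG in 6.58% and 11.6%, and AGGTCA in 14.5% and 14%. These matches are letters in a window and were not tested as binding sites.

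Across all 7 groups, 47 of the 71 members differed by limma's F test with a range of group means of 1 or more, beside 31.8% of all genes tested. These were 26 of 35 ligands and 21 of 33 receptors. All 3 Slit genes, both neuropilins, Dcc and 7 of 9 plexins were among them, with 5 of 7 class 3, 4 of 6 class 4, both class 5, 3 of 4 class 6 and the 1 class 7 semaphorin. In the Eph system, 5 of 9 Epha and 2 of 4 Ephb receptors, 4 of 5 ephrin-A and 2 of 3 ephrin-B ligands were called. Of the netrins Ntn1 and Ntn4 were called, of the Unc5 receptors Unc5a and Unc5d, and of the Robo receptors Robo1 and Robo3. Robo2, the main partner of Robo1 in Slit repulsion, had group means within 0.72 of each other. Its SD over the 21 arrays was 0.78, with an adjusted p of 0.885 in the F test. For Unc5c the range was 2.07 but the adjusted p was 0.25, with SDs of up to 1.21 within a group. At the quiet end, 6 members had an SD under 0.1 over all arrays.

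RA wild type had the highest group mean for 15 of the 47 members, followed by the Olig2 line with 10 and the Lmx1a line at day 10 with 9. Among all 5782 genes called by the same test, the highest mean lay in RA wild type for 22.8%, in the Olig2 line for 18.5% and in the Lmx1a line at day 10 for 7.3%. The lowest mean lay in the Nkx2.2 line with RA for 18 members, and for 25.6% of all genes called. Summed over 4 neural crest markers, the centred signal was -1.76 to 2.13 across the lines, against 3.07 to 4.68 in FGF8 and 8.06 to 8.37 in RA wild type. Against RA wild type, Foxd3 and Tfap2a, 2 of the 4, were called lower in the Olig2 line and the Nkx2.2 line with RA. Sox9, another of the 4, was called higher in the Nkx2.2 line with RA than in RA wild type. Foxd3 and Tfap2a were also called higher in RA than in FGF8 wild type. The part of neural crest cells in the members' levels was not tested.

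**Figure D1:**
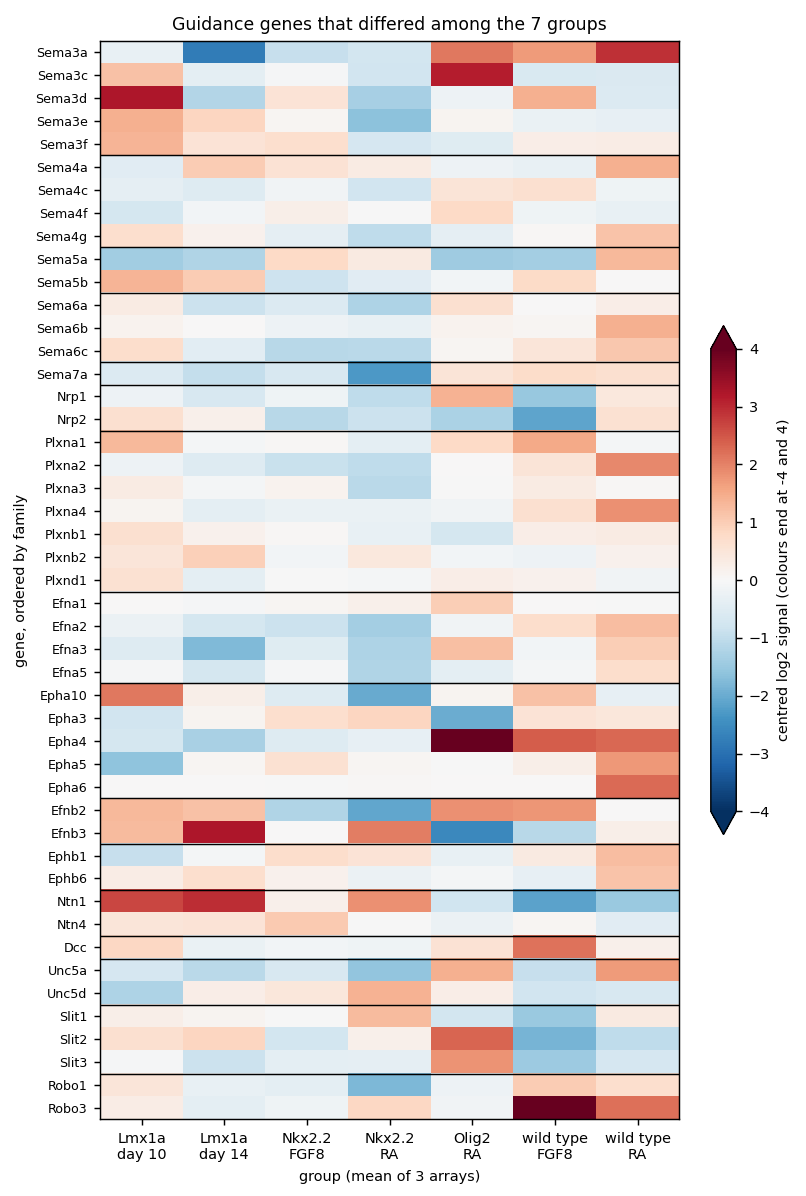
Group means (3 arrays each) of the centred log2 signal for the 47 members that differed among the groups, 1 row per gene ordered by family and 1 column per group, red above and blue below the gene's median. Robo3 reaches 5.22 in FGF8 wild type, Epha4 4.06 in the Olig2 line and Sema3d 3.24 in the Lmx1a line at day 10.

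Robo3, the receptor of midline crossing, was high in both wild type groups and low in every engineered group. It stood at -0.06, -0.07 and 1.03 in the Lmx1a line at day 10, at -1.05, -0.10 and -0.01 at day 14, at -0.06, -1.22 and 0.79 in the Nkx2.2 line with FGF8, at 1.09, 1.22 and 0.19 in the Nkx2.2 line with RA and at -0.15, -0.15 and -0.08 in the Olig2 line, against 4.87, 5.88 and 4.91 in FGF8 wild type and 2.35, 2.43 and 1.81 in RA wild type. No engineered array reached the lowest wild type array. Robo3 fell by 4.92 ± 0.47 in the Lmx1a line (adjusted p = 3.46e-05) and fell by 5.38 ± 0.47 in the Nkx2.2 line with FGF8 (adjusted p = 6.26e-06), both against FGF8 wild type. It fell by 2.32 ± 0.47 in the Olig2 line (adjusted p = 0.0033) and fell by 1.36 ± 0.47 in the Nkx2.2 line with RA (adjusted p = 0.0428), both against RA wild type. The comparisons with FGF8 wild type share control arrays, and so do the comparisons with RA wild type. The last call was lost without replicate 1 or 3 of the Nkx2.2 line or replicate 1 or 2 of wild type, with an adjusted p of up to 0.171. These values come from 1 of the 2 Robo3 probe sets. The other moved by at most 0.055 in size in any of the comparisons in which Robo3 was called.

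Dcc, the attractive netrin receptor carried by commissural axons, had its highest mean in FGF8 wild type. Its values were 2.10, -0.24 and 0.59 in the Lmx1a line at day 10, -0.30, -0.27 and 0.24 in the Nkx2.2 line with FGF8, and 2.11, 2.80 and 1.64 in FGF8 wild type. The Lmx1a line overlapped wild type through its first replicate, and its difference of -1.37 was not called (adjusted p = 0.243). Dcc fell by 2.29 ± 0.58 in the Nkx2.2 line with FGF8 (adjusted p = 0.0258), a call lost without replicate 1 or 2 of either group (adjusted p up to 0.106) and in a fit blocked by batch (-2.09, adjusted p = 0.104). The Olig2 line had 1.20, 0.26 and 0.28 and the Nkx2.2 line with RA -0.28, -0.49 and 0.26, against -0.38, -0.55 and 1.55 in RA wild type, where the third replicate stood apart. Neither difference from RA wild type was called (0.37 and -0.38).

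No comparison between groups called both Dcc and its secreted ligand Ntn1. Ntn1 had its lowest mean in FGF8 wild type. It stood at 3.29, 2.84 and 1.87 in the Lmx1a line at day 10 and at 3.04, 2.29 and 3.55 at day 14, against -0.89, -2.63 and -2.88 in FGF8 wild type, with no overlap. The rise in the Lmx1a line was 4.80 ± 1.06 (adjusted p = 0.0164), and was lost without replicate 1 of the line or replicate 3 of wild type (adjusted p up to 0.0661). With FGF8 the Nkx2.2 line had 0.30, -0.31 and 0.58, all above wild type, but the difference of 2.32 was not called (adjusted p = 0.245). The Nkx2.2 line with RA had 1.11, 1.80 and 2.61, against -3.16, -3.17 and 1.89 in RA wild type, where the third replicate lay within the range of the line. The rise of 3.32 ± 1.06 (adjusted p = 0.0285) became 5.0 without that replicate, was lost without 1 of 4 other arrays (adjusted p up to 0.144), and was not called within batch B (adjusted p = 0.135). The second Ntn1 probe set gave smaller rises of 3.05 in the Lmx1a line and 1.68 in the Nkx2.2 line with RA. The Olig2 line had -0.02, -0.27 and -2.14 and did not differ by the test (0.67, adjusted p = 0.684). All 4 floor plate markers were called higher than in wild type in the Lmx1a line and the Nkx2.2 line with RA, where Ntn1 was called. In the Nkx2.2 line with FGF8, where Ntn1 was not called, 3 of 4 were higher. Whether floor plate cells had a part in the Ntn1 differences was not tested.

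Each of the 3 Slit genes, ligands of the Robo receptors, was called higher in at least 1 line and lower in none against wild type. Slit2 stood at 2.38, 2.06 and 2.57 in the Olig2 line, at 0.41, -0.47 and 0.70 in the Nkx2.2 line with RA and at -0.51, -0.82 and -1.71 in RA wild type. The Olig2 line was above every other group, and Slit2 rose there by 3.35 ± 0.38 (adjusted p = 3.18e-05). In the Nkx2.2 line with RA it rose by 1.22 ± 0.38 (adjusted p = 0.0248), a call lost without replicate 1 or 3 of the line or replicate 3 of wild type (adjusted p up to 0.125) and within batch B. With FGF8 it stood at 0.85, 0.00 and 1.07 in the Lmx1a line and -1.22, -0.11 and -0.87 in the Nkx2.2 line, against -1.84, -1.84 and -1.85 in wild type. The rise in the Lmx1a line was 2.48 ± 0.38 (adjusted p = 0.00147) and that in the Nkx2.2 line, 1.11, was not called (adjusted p = 0.101). All 3 Slit2 probe sets rose by 2 or more in the Lmx1a line.

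Slit3 was raised in the Olig2 line, with 1.93, 1.81 and 1.68, against -1.28, 0.13 and -0.85 in RA wild type (2.47 ± 0.50, adjusted p = 0.00324). Its differences of 1.41 and 1.07 in the Lmx1a and Nkx2.2 lines with FGF8 were not called. Slit1 was called in the lines grown with FGF8. It stood at 0.06, 0.65 and 0.00 in the Lmx1a line and 0.70, -0.34 and -0.38 in the Nkx2.2 line with FGF8, against -0.92, -1.63 and -1.94 in FGF8 wild type, with no overlap. The rises were 1.73 ± 0.42 (adjusted p = 0.0291) and 1.49 ± 0.42 (adjusted p = 0.0452), and both were lost without any 1 of 4 arrays (adjusted p up to 0.108 and 0.225). In the Olig2 line it was -0.66, -0.70 and -0.87, below the 0.10, 0.67 and 0.28 of RA wild type, a difference of -1.10 that was not called (adjusted p = 0.0927).

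**Figure D2:**
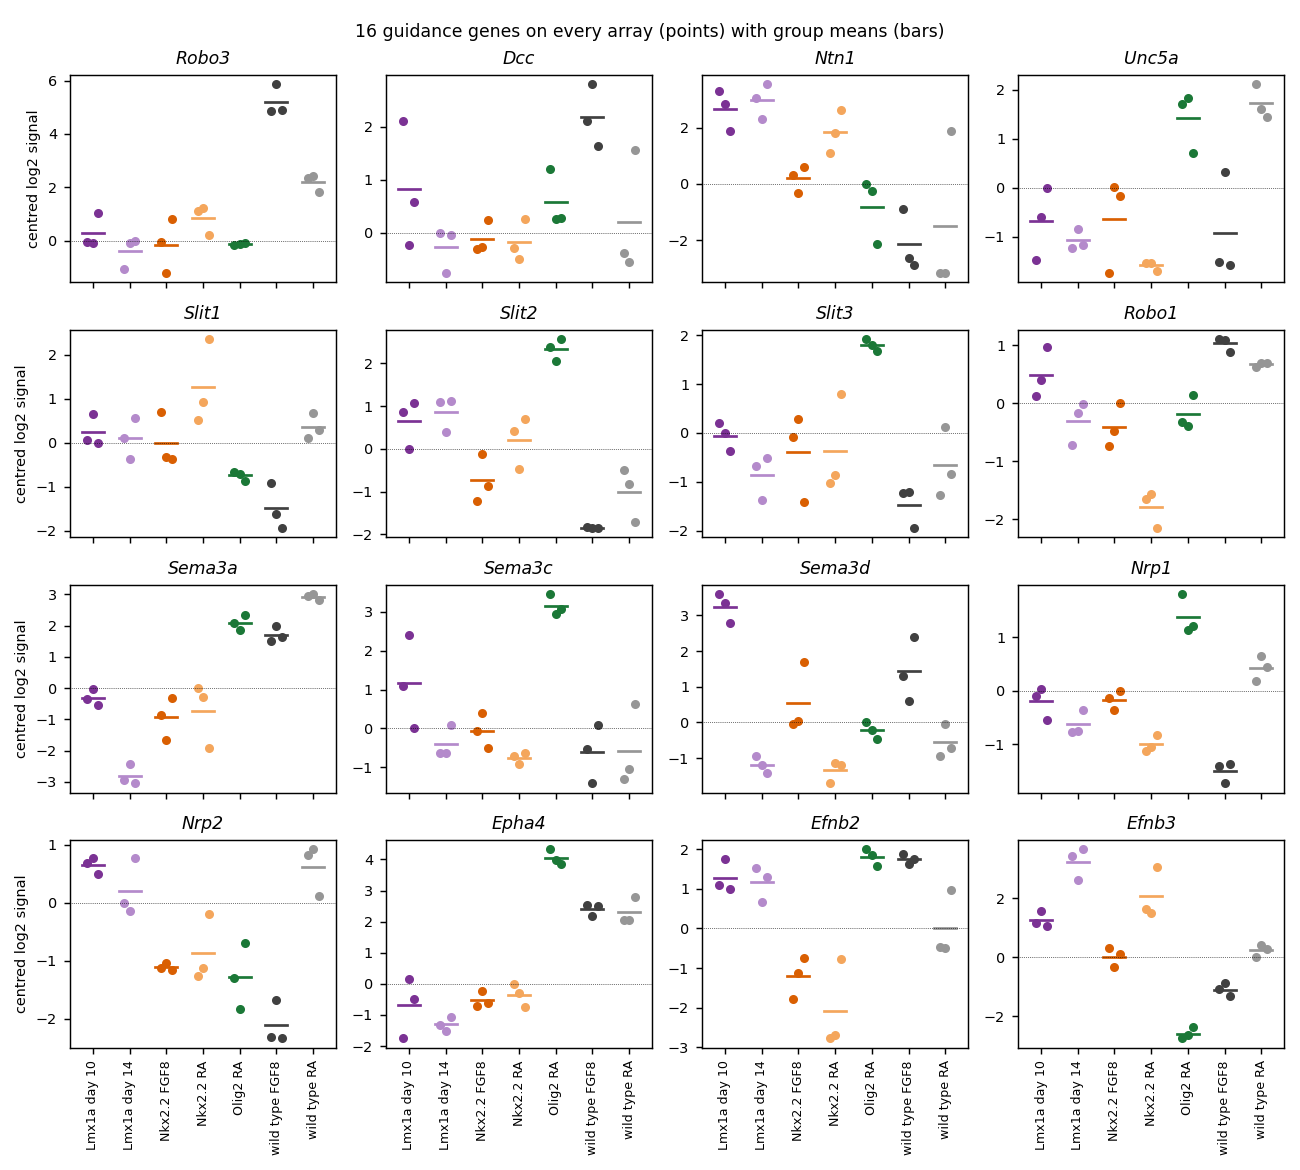
Centred log2 signal of 16 guidance genes on every array (points) with group means (bars), the engineered groups to the left of the wild type groups in each panel, with a separate vertical scale per panel. Robo3 separates all wild type arrays from all engineered arrays, Slit2 and Slit3 are highest in the Olig2 line, and replicate 3 of RA wild type stands apart for Ntn1, Dcc and Efnb2.

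Dopaminergic fate at day 10 was compared between the Lmx1a line and FGF8 wild type, both sampled after 10 days. Of the 71 members 7 rose and 5 fell, beside 1.96% of all genes higher and 1.36% lower (3.31% in either direction). The rises were 5 ligands and both neuropilins: Ntn1, Slit1 and Slit2 as above, with Nrp2, Efnb3, Sema3d and Nrp1. Beside Robo3, the falls were Epha4, Sema3a, Epha5 and Sema7a.

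Nrp2, the coreceptor of several class 3 semaphorins, stood at 0.68, 0.77 and 0.49 in the Lmx1a line, against -2.32, -1.68 and -2.34 in wild type, a rise of 2.76 ± 0.33 (adjusted p = 0.000268). The ephrin-B ligand Efnb3, known as a midline barrier in the spinal cord, had 1.15, 1.56 and 1.06 in the line, against -1.10, -0.87 and -1.33 in wild type, a rise of 2.35 ± 0.35 (adjusted p = 0.00111). Epha4, an Eph receptor that binds both ephrin classes, had -1.74, 0.17 and -0.49 in the line, against 2.54, 2.19 and 2.50 in wild type, and fell by 3.10 ± 0.36 (adjusted p = 0.000214). In none of these did the groups overlap, although the Lmx1a replicates of Epha4 were spread over nearly 2 units. Sema3a, a repellent of many axons through Nrp1, had -0.35, -0.02 and -0.55 in the line, against 1.51, 1.98 and 1.65 in wild type, and fell by 2.02 ± 0.41 (adjusted p = 0.00933).

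The smaller rises were 1.81 for Sema3d and 1.30 for Nrp1, and the smaller falls were -1.84 for Epha5 and -1.27 for the membrane-anchored Sema7a. Calls of 7 members (Efnb3, Epha4, Nrp1, Nrp2, Robo3, Sema3a and Slit2) were kept without any single array. The other 5 were each lost without at least 1 of the 6 arrays, every one of which ended at least 1 call, with highest adjusted p of 0.0661 to 0.146, and Sema7a dropped to -0.79 without replicate 1 of the line. With the batch as a block 10 of the 12 calls were kept and within batch A 9, where Robo3 differed by -5.07 and Ntn1 by 4.42.

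Serotonergic fate with FGF8 was compared between the Nkx2.2 line and FGF8 wild type at day 10. Here 3 members rose and 11 fell, beside 2.83% of all genes higher and 1.71% lower (4.53% in either direction). Robo3 and Dcc fell as above. The other falls were 3 semaphorins and 2 ephrins (Sema3a, Sema6c, Sema7a, Efna2 and Efnb2), the receptors Epha4 and Epha10, the Slit receptor Robo1 and the plexin Plxna2. The rises were Sema5a, Slit1 and Nrp1.

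Efnb2, an ephrin-B ligand, stood at -1.78, -1.12 and -0.73 in the Nkx2.2 line, against 1.89, 1.64 and 1.76 in wild type, and fell by 2.97 ± 0.49 (adjusted p = 0.00154). Epha4 had -0.72, -0.23 and -0.61 in the line, against the wild type values given above, and fell by 2.93 ± 0.36 (adjusted p = 0.000164). Sema3a had -0.85, -1.66 and -0.30 in the line and fell by 2.65 ± 0.41 (adjusted p = 0.001). The line lay below wild type on every array for all 3 genes. Among the rises, the transmembrane semaphorin Sema5a had 0.74, 1.27 and 0.39 in the line, against -1.47, -1.61 and -1.0 in wild type (2.16 ± 0.40, adjusted p = 0.00411). Nrp1, the coreceptor of Sema3a, had -0.15, -0.37 and 0.00 in the line, against -1.41, -1.73 and -1.37 in wild type (1.33 ± 0.20, adjusted p = 0.000787).

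Falls of the remaining members were -1.68 for Epha10, an Eph receptor without kinase activity, -1.58 for Sema6c, -1.56 for Efna2, -1.44 for Robo1, -1.41 for Plxna2 and -1.38 for Sema7a. Efnb2, Epha4, Nrp1, Robo1, Robo3, Sema3a and Sema5a were kept without any single array, and the other 7 calls were each lost without at least 1 of replicates 1 and 2 of the line and the 3 wild type arrays (highest adjusted p 0.0885 to 0.225). With the batch as a block 8 of 14 calls were kept. Within batch B, with 1 wild type array left, Robo3 (-5.07), Epha4 (-3.02) and Nrp1 (1.19) were still called.

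Motor neuron fate was compared between the Olig2 line and RA wild type, both at day 8. Of the members 6 rose and 18 fell, beside 5.5% of all genes higher and 4.85% lower (10.4% in either direction). Of the 6 rises 5 were ligands: Sema3c, Slit2, Slit3, Efnb2 and Sema4f, with Epha4 the receptor. Of the 18 falls 11 were receptors, among them 4 Epha receptors, 2 Ephb receptors and 3 plexins.

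Sema3c, a class 3 semaphorin, stood at 3.45, 2.93 and 3.06 in the Olig2 line, against -1.31, -1.03 and 0.63 in wild type, and rose by 3.72 ± 0.56 (adjusted p = 0.00038). Efnb2 had 2.01, 1.85 and 1.58 in the line, against -0.46, -0.50 and 0.97 in wild type (1.81 ± 0.49, adjusted p = 0.0179). Neither gene overlapped between the groups. Epha4, which guides motor axons in the limb, had 4.33, 3.99 and 3.85 in the line, against 2.04, 2.04 and 2.80 in wild type (1.76 ± 0.36, adjusted p = 0.00363). In the other 4 engineered groups its mean lay between -1.30 and -0.34. All 4 other Epha4 probe sets were also higher in the Olig2 line than in RA wild type, by 1.44 to 2.49. Where Epha4 was called lower than in wild type, 1 of these 4 moved little. It differed by -0.33 in the Lmx1a line and by -0.41 and -0.18 in the Nkx2.2 line with FGF8 and RA. The rest of the 4 differed by -2.96 to -1.86 there.

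Efnb3 had -2.74, -2.65 and -2.38 in the Olig2 line, against 0.00, 0.43 and 0.29 in wild type, a fall of 2.83 ± 0.35 (adjusted p = 6.49e-05), opposite to its rise in the Lmx1a line. Sema5a had -0.59, -1.99 and -1.66 in the line, against 1.36, 1.24 and 1.31 in wild type, and fell by 2.72 ± 0.40 (adjusted p = 0.000326). Epha3, a receptor of ephrin-A ligands, had -2.74, -2.55 and -0.69 in the line, against 0.61, 0.63 and 0.13 in wild type, and fell by 2.45 ± 0.46 (adjusted p = 0.00192). The line was below wild type on every array for all 3, although the third replicate of the line stood apart for Epha3. The largest of the other falls were -2.25 for Epha6, -1.94 for Plxna4, -1.93 for Plxna2, -1.90 for Nrp2, -1.76 for Epha5, -1.62 for Sema4a, -1.51 for Ephb1 and -1.51 for Epha7.

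Of these 24 calls 15 were kept without any single array. The other 9 (Efna2, Efna5, Efnb2, Epha5, Epha7, Ephb1, Plxnb1, Sema4a and Sema4f) were each lost without at least 1 of the 6 arrays, all of which ended at least 1 call, with highest adjusted p of 0.0647 to 0.138. With the batch as a block 15 were kept, and within batch B, with 1 array of the line, 6. There Slit2 differed by 3.58, Sema3c by 3.63, Robo3 by -2.28 (adjusted p = 0.186) and Efnb3 by -2.62 (adjusted p = 0.0676).

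Serotonergic fate with RA gave the most calls of the 4 comparisons with wild type. In the Nkx2.2 line with RA 4 members rose and 23 fell against RA wild type, beside 8.84% of all genes higher and 9.16% lower (18% in either direction). The median difference over the 71 members was -0.55, while over all genes it was 0.01. Falls covered 10 ligands and 13 receptors. They took in Sema3a, Sema7a, Sema4g and 3 of 4 class 6 semaphorins, both neuropilins, 3 plexins, 3 ephrin-A ligands, Efnb2, 4 Epha receptors and Ephb6. The rises were Ntn1 and Slit2 as above, with Unc5d and Efnb3.

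Sema3a had 0.00, -0.27 and -1.92 in the Nkx2.2 line, against 2.94, 3.01 and 2.83 in wild type, and fell by 3.66 ± 0.41 (adjusted p = 1.29e-05). The repulsive netrin receptor Unc5a had -1.52, -1.53 and -1.69 in the line, against 2.11, 1.61 and 1.43 in wild type, a fall of 3.30 ± 0.53 (adjusted p = 0.000264). Plxna2, a plexin that transduces class 3 and class 6 semaphorins, had -1.62, -1.0 and -0.42 in the line, against 1.56, 1.80 and 2.43 in wild type (-2.94 ± 0.33, adjusted p = 1.49e-05). These groups were far apart on every array. Sema7a had -2.25, -1.98 and -2.63 in the line, against 0.49, 0.61 and 0.79 in wild type, a fall of 2.92 ± 0.34 (adjusted p = 2.12e-05). The second Sema7a probe set differed by only -0.18 here. In the other comparisons in which Sema7a was called it differed by -0.22 to -0.03.

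Unc5d moved in the direction opposite to Unc5a. It had 1.97, 1.72 and 0.48 in the line, against -0.71, -0.54 and -0.70 in wild type, a rise of 2.04 ± 0.36 (adjusted p = 0.000498). Efnb3 had 1.64, 1.49 and 3.05 in the line, against 0.00, 0.43 and 0.29 in wild type, a rise of 1.82 ± 0.35 (adjusted p = 0.00101). The next falls were -2.64 for Epha4, -2.59 for Efna2, -2.45 for Robo1, -2.22 for Efna3, -2.19 for Epha6, -2.16 for Sema4g, -2.15 for Sema6c and -2.09 for Plxna4. The other 11 falls lay between -2.07 for Efnb2 and -1.13 for Plxna3.

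Calls of 20 members were kept without any single array. The other 7 (Epha5, Epha10, Ntn1, Plxna3, Robo3, Sema6a and Slit2) were each lost without at least 1 of the 6 arrays, all of which ended at least 1 call (highest adjusted p 0.0554 to 0.171). All 6 arrays were in batch B. Besides the day, 3 of 6 neural progenitor markers were higher in the line and the neuron markers Tubb3 and Elavl3, 2 of 7, were lower, and their part in these falls was not tested.

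**Figure D3:**
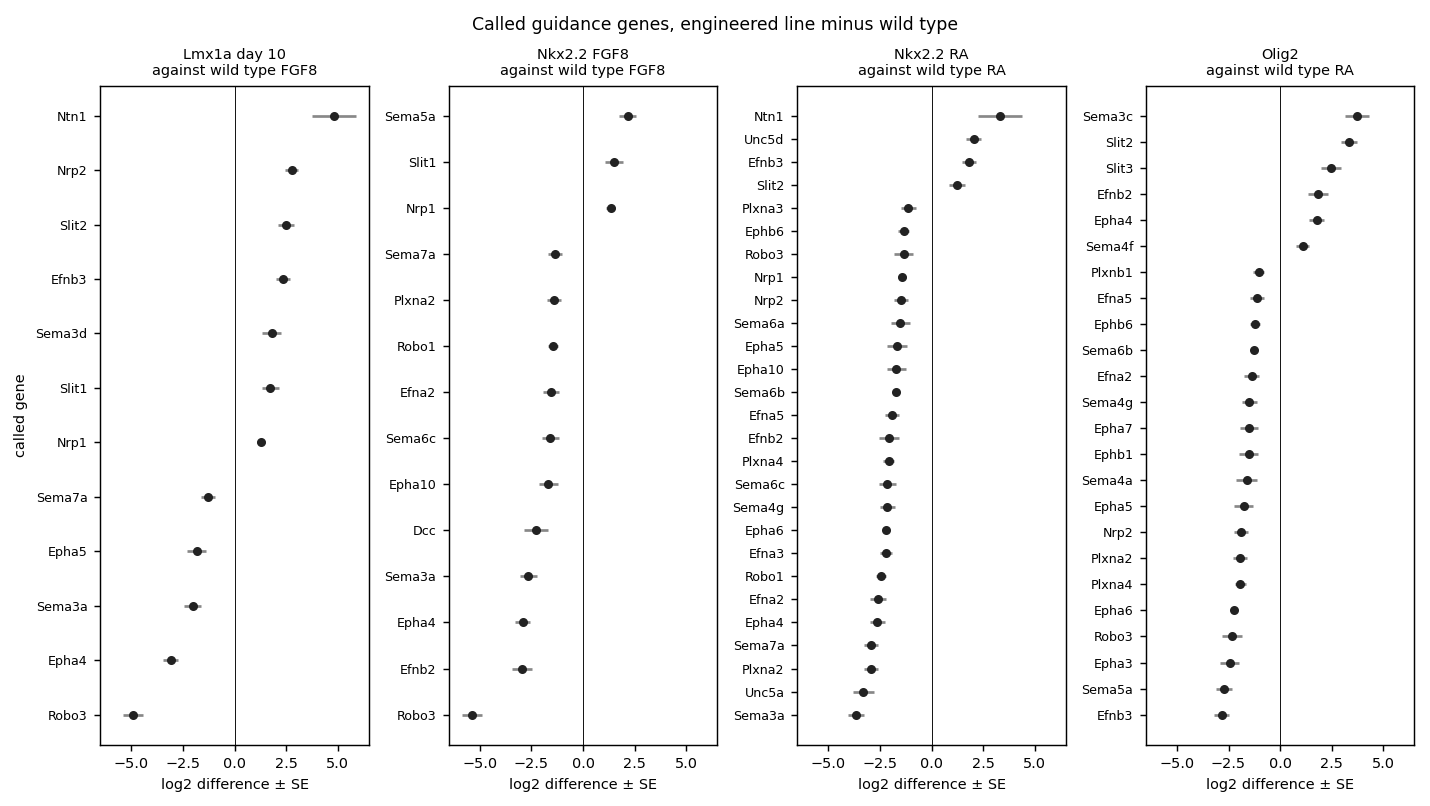
Log2 difference and SE of every called guidance gene in the 4 comparisons of an engineered line (3 arrays) with wild type (3 arrays), 1 panel per comparison and 1 row per gene, with genes higher in the line right of 0. Robo3 lies left of 0 in all 4 panels, and the Nkx2.2 line with RA has 23 genes left of 0 and 4 right of it.

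Development over 4 further days was read in the Lmx1a line. At day 14 against day 10, 3 members were higher and 5 lower, beside 2.96% of all genes higher and 1.28% lower (4.24% in either direction). Sema3d, a class 3 semaphorin, had -0.95, -1.20 and -1.40 at day 14, against 3.60, 3.34 and 2.77 at day 10, and fell by 4.42 ± 0.46 (adjusted p = 4.31e-05). Sema3a had -2.93, -2.42 and -3.03 at day 14, against -0.35, -0.02 and -0.55 at day 10 (-2.49 ± 0.41, adjusted p = 0.00179). Efnb3 rose further, with 3.43, 2.61 and 3.67 at day 14, against 1.15, 1.56 and 1.06 at day 10 (1.98 ± 0.35, adjusted p = 0.00298). None of these overlapped between the days. Summed over 3 dividing cell markers, none of them called, the centred signal was -6.88 to -3.24 at day 14 against 1.34 to 2.94 at day 10, and over the 5 astroglial markers, of which Aldh1l1 was called higher, it was 1.40 to 5.05 against -2.86 to -1.12. The part of these cells in the differences between days was not tested.

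Epha5 rose by 1.68 and Unc5d by 1.48 from lower values at day 10, and the other differences were -1.87 for Epha10, -1.24 for Efna3 and -1.01 for Plxnd1, a plexin expressed mainly in vessels and some neurons. Only Efnb3, Sema3a and Sema3d were kept without any single array. The other 5 calls were each lost without at least 1 of the 6 arrays, all of which ended at least 1 call (highest adjusted p 0.0578 to 0.164), while Efnb3, Sema3a and Sema3d differed by 1.76, -2.37 and -4.31 within batch A. Robo3, Dcc, Ntn1 and the 3 Slit genes did not differ by the test between the days (-0.69, -1.08, 0.29 and -0.80 to 0.23).

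RA and FGF8 were compared within the Nkx2.2 line at day 10, where 1 member was higher with RA and 4 were lower, beside 2.66% of all genes higher and 1.65% lower. The 5 calls, 4.31% being the share of all genes in either direction, were Efnb3 (2.04 ± 0.35, adjusted p = 0.0023), Sema3d (-1.90 ± 0.46, adjusted p = 0.0201), Sema7a (-1.64 ± 0.34, adjusted p = 0.00916), Robo1 (-1.38 ± 0.25, adjusted p = 0.00308) and Plxna3 (-1.22 ± 0.35, adjusted p = 0.0472). Robo1, which makes axons sensitive to Slit, had -1.64, -1.57 and -2.15 with RA, against -0.74, -0.47 and 0.00 with FGF8. Sema3d had -1.70, -1.14 and -1.18 with RA, against -0.05, 0.04 and 1.68 with FGF8, where the third replicate stood apart. Plxna3 had -1.05, -1.05 and -1.15 with RA, against -0.32, 0.18 and 0.57 with FGF8. For Efnb3, Sema7a and Robo1 no single array ended the call. Sema3d was lost without replicate 3 with FGF8 or replicate 1 with RA (adjusted p up to 0.0787), and Plxna3 without any 1 of the 6 arrays but replicate 1 with FGF8 (adjusted p up to 0.158). In a fit of these 6 arrays alone none of the members was called, with 17 at an unadjusted p under 0.05. The 5 calls among 71 members are close to the share of all genes.

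In wild type neurons 14 members were higher with RA at day 8 than with FGF8 at day 10 and 5 were lower, beside 4.29% of all genes higher and 3.11% lower (7.4% in either direction). Both neuropilins were higher with RA. Nrp2 had 0.83, 0.93 and 0.11 with RA, against -2.32, -1.68 and -2.34 with FGF8 (2.73 ± 0.33, adjusted p = 0.000143), and Nrp1 had 0.17, 0.64 and 0.45 with RA, against -1.41, -1.73 and -1.37 with FGF8 (1.92 ± 0.20, adjusted p = 2.96e-05). Sema5a had 1.36, 1.24 and 1.31 with RA, against -1.47, -1.61 and -1.0 with FGF8 (2.66 ± 0.40, adjusted p = 0.000714). These 3 genes did not overlap between the groups.

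Unc5a had 2.11, 1.61 and 1.43 with RA, against -1.52, 0.33 and -1.57 with FGF8 (2.64 ± 0.53, adjusted p = 0.00506). Epha6, an Epha receptor, had 2.60, 1.98 and 2.19 with RA, while the other 18 arrays of the study lay between -0.06 and 0.26. Its difference with FGF8 was 2.25 ± 0.12 (adjusted p = 1.46e-08), and both lines compared with RA wild type were lower by about as much (-2.25 in the Olig2 line and -2.19 in the Nkx2.2 line). The further rises named were 1.85 for Slit1, 1.71 for Sema4a, 1.51 for Epha5, 1.45 for Ephb6, 1.41 for Plxna2, and 1.34 each for Efnb3 and Sema6b.

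Robo3 fell by 3.02 ± 0.47 with RA (adjusted p = 0.000885), although both wild type groups stood above every line. The other falls were -1.99 for Sema3d, -1.97 for Dcc, -1.76 for Efnb2 and -1.48 for Epha10. Epha6, Ephb6, Nrp1, Nrp2, Robo3, Sema5a, Sema6b and Unc5a were kept without any single array. The other 11 calls were lost without at least 1 of the 6 arrays, all of which ended at least 1 call (highest adjusted p 0.0497 to 0.173, Plxna4 at the lower end being lost by its size), Sema4a became 1.13 without replicate 3 with FGF8, and 11 of 19 were kept with the batch as a block. Within batch B, with 1 FGF8 array, Robo3 differed by -2.71 (adjusted p = 0.0877), Nrp1 by 1.79 and Nrp2 by 2.96. The mesenchymal markers were spread widely within RA wild type, as Col1a1 with 0.37, 4.11 and 3.65.

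The difference between the Nkx2.2 line and wild type itself depended on the factor for 10 members, beside 4.38% of all genes in either direction. It was 1 member with a more positive line difference under RA (1.78% of all genes) and 9 with a more negative one (2.6% of all genes). Robo3 differed by -1.36 under RA and -5.38 under FGF8. Its RA minus FGF8 difference was -3.02 within wild type, and that within the Nkx2.2 line was not called. On the probe set used, Nrp1 changed sign, with a line difference of -1.43 under RA and 1.33 under FGF8, both of them called. Its difference of differences was -2.76 ± 0.28 (limma adjusted p = 4.01e-05). The other Nrp1 probe sets differed by -0.87, -0.60 and 0.08 under RA. Under FGF8 they differed by 1.43, 1.27 and 0.03. For Epha6 the line difference was -2.19 under RA and -0.02 under FGF8. RA minus FGF8 within the Nkx2.2 line was -0.83 for Nrp1 and 0.07 for Epha6, neither of them called, and within wild type it was 1.92 and 2.25, both called. Unc5a, Sema5a, Nrp2, Efna3, Efna5, Ephb6 and Sema6b made up the rest, with differences of differences between -3.59 and -1.43. The days differ under RA and not under FGF8, so factor and day cannot be told apart in this test. Of the 10 calls 8 were kept without any single array, and Efna3 and Efna5 were each lost without 1 of 5 arrays (adjusted p up to 0.0602 and 0.0749).

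**Figure D4:**
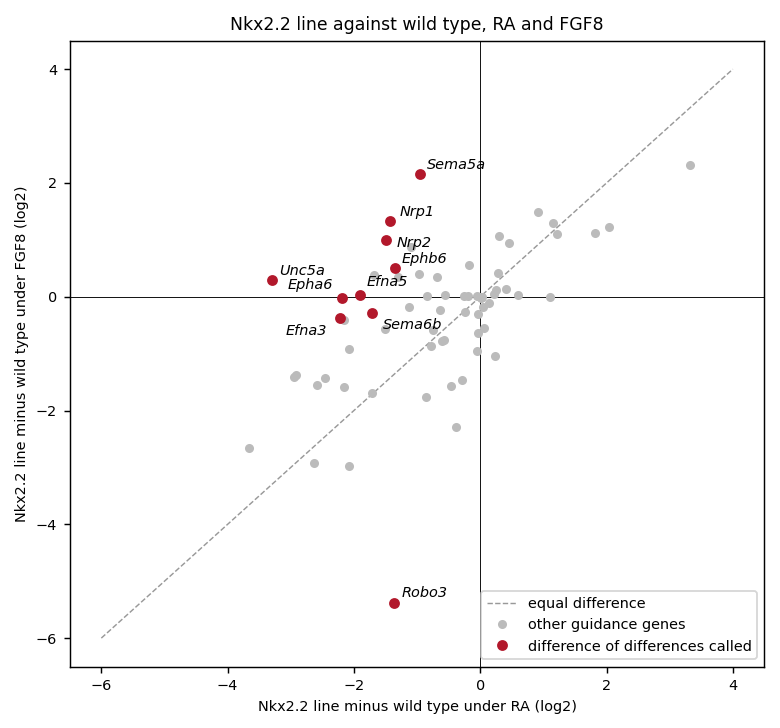
Log2 difference of the Nkx2.2 line from wild type under RA (horizontal) and under FGF8 (vertical), 1 point per guidance gene from means of 3 arrays per group, with the 10 genes whose 2 differences differed by the test in red. Robo3 lies below the dashed line of equal differences at -1.36 and -5.38, and the other 9 red points lie above it.

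Engineered lines were also set against each other. In Lmx1a neurons against Nkx2.2 neurons, both at day 10 with FGF8, 9 members were higher and 4 lower, beside 2.2% of all genes higher and 2.87% lower (5.07% in either direction). Sema3d was higher by 2.68 ± 0.46 (adjusted p = 0.00288), Epha10 by 2.63 ± 0.45 (adjusted p = 0.00292), Efnb2 by 2.49 ± 0.49 (adjusted p = 0.00606) and Sema5b by 2.18 ± 0.60 (adjusted p = 0.0346), a value that became 1.34 without replicate 2 of the Lmx1a line. Epha10 had 1.54, 1.96 and 2.83 in the Lmx1a line, against -1.0, -0.53 and -0.01 in the Nkx2.2 line. Sema6c, Nrp2, Sema4d, Slit2 and Efnb3 were higher by 1.80 to 1.24. Lower in the Lmx1a line were Epha5 by -2.22 ± 0.47 (adjusted p = 0.00921), Sema5a by -2.20 ± 0.40 (adjusted p = 0.00418), Unc5d by -1.69 ± 0.36 (adjusted p = 0.00891) and Ephb1 by -1.61 ± 0.46 (adjusted p = 0.0424). Efnb2, Epha10, Nrp2, Sema3d, Sema5a and Unc5d were kept without any single array and the other 7 were each lost without at least 1 of the 6 arrays, all of which ended at least 1 call (highest adjusted p 0.0514 to 0.189). The groups lay in different batches, so batch and group cannot be told apart within a batch, and with the batch as a block Epha10, Nrp2, Sema3d and Sema5a were kept.

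The Nkx2.2 line with RA, against the Olig2 line with RA, had 5 members higher and 19 lower, beside 6.19% of all genes higher and 6.94% lower (13.1% in either direction). Efnb3, with 1.64, 1.49 and 3.05 in the Nkx2.2 line, against -2.74, -2.65 and -2.38 in the Olig2 line, was higher by 4.65 ± 0.35 (adjusted p = 2.41e-07). Epha4, with 0.00, -0.29 and -0.74 in the Nkx2.2 line, against 4.33, 3.99 and 3.85 in the Olig2 line, was lower by -4.40 ± 0.36 (adjusted p = 6.94e-07). Efnb2, with -2.76, -2.68 and -0.77 in the Nkx2.2 line, against 2.01, 1.85 and 1.58 in the Olig2 line, was lower by -3.88 ± 0.49 (adjusted p = 3.83e-05). Efnb2, Efnb3 and Epha4 did not overlap between the groups, and Efnb2 and Efnb3 differed in opposite directions. The remaining ephrin-B ligand, Efnb1, overlapped and was not called (0.41, adjusted p = 0.73).

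Epha3, Slit1, Sema5a and Unc5d were the other members higher in the Nkx2.2 line, by 2.86, 2.01, 1.76 and 1.11. Lower were Sema3c by -3.90, Unc5a by -3.0, Sema3a by -2.83, Sema7a by -2.80, Efna3 by -2.44, Nrp1 by -2.39, Slit3 by -2.17, Epha10 by -2.14, Slit2 by -2.12 and Sema6a by -1.90, with 7 others at -1.73 to -1.01. Calls of 18 members were kept without any single array. The other 6 (Efna2, Ephb3, Plxna2, Plxna3, Sema3e and Unc5d) were each lost without at least 1 of the 6 arrays, all of which ended at least 1 call (highest adjusted p 0.0678 to 0.211), and Sema3e became -1.15 without replicate 2 of the Nkx2.2 line. Within batch B, with 1 array of the Olig2 line, 8 of the 24 calls were kept, with Efnb3 at 4.44 and Epha4 at -4.20. The days differ between these groups.

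**Figure D5:**
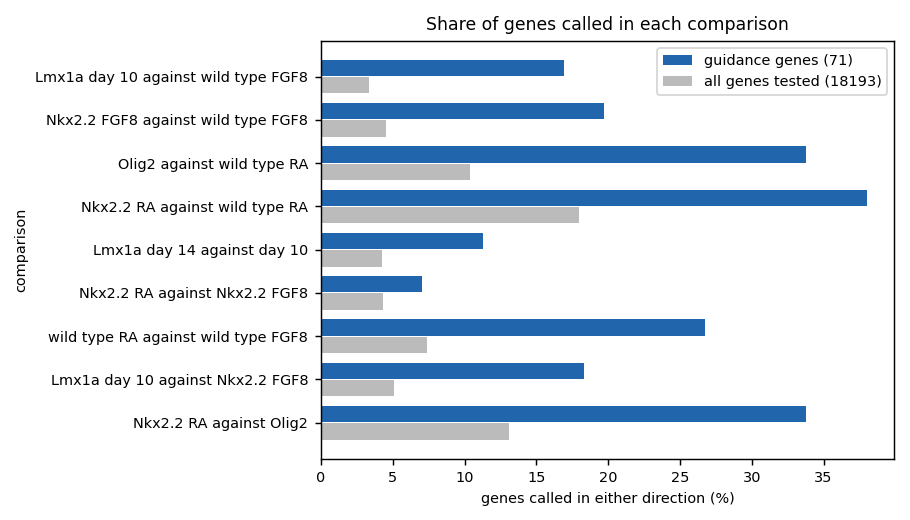
Share of genes called in either direction in each of the 9 comparisons between groups, with the 71 guidance genes (blue) above all 18193 genes tested (grey). The guidance genes were called in 7.04% (Nkx2.2 line with RA against FGF8) to 38% (Nkx2.2 line with RA against wild type). Their bar is the longer one in every comparison. In the Nkx2.2 line with RA against FGF8 it stands for only 5 genes, close to the 4.31% of all genes.

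Class 3 semaphorins, ephrins and neuropilins each differed among themselves in the groups where they were high. Both neuropilins were called in the same direction in the Lmx1a line, the Nkx2.2 line with RA and RA against FGF8 wild type. Nrp2 alone was called in the Olig2 line (lower) and in Lmx1a against Nkx2.2 neurons (higher). Nrp1 alone was called in the Nkx2.2 line with FGF8 (higher) and in the Nkx2.2 line with RA against the Olig2 line (lower). The highest group mean lay in the Olig2 line for Nrp1 and in the Lmx1a line at day 10 for Nrp2. Sema3a, Sema3c, Sema3d and Sema3e all lie on chromosome 5 in the RefSeq annotation, as does Slit2, and their highest group means lay in 3 of the 7 groups. Sema3a was highest in RA wild type (2.93 ± 0.09, SD), Sema3c (3.15 ± 0.27) and Slit2 (2.34 ± 0.26) in the Olig2 line, and Sema3d (3.24 ± 0.42) and Sema3e (1.43 ± 0.95) in the Lmx1a line at day 10. Among ephrins, Efnb3 was called in 8 of the 9 comparisons between groups and Efnb2 in 6, while Efnb1 was called in none. Among ephrin-A ligands, Efna3 had 1.08, 1.19 and 1.38 in the Olig2 line and 1.07, 0.99 and 0.93 in RA wild type, above all other arrays, whereas Efna1 had 0.74, 1.62 and 0.58 in the Olig2 line, against -0.05, -0.03 and 0.03 in RA wild type. That Efna1 difference of 0.99 passed the adjusted p (0.00621) but fell short of 1 and was not called. In all, 45 members were called in at least 1 of the 9 comparisons, beside 30.7% of all genes, and 26 in none, among them Robo2, Robo4, Unc5b, Unc5c, Plxna1, Ntn4 and 7 members of the Eph system.

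Of the 71 members 46 had more than 1 probe set. In a check added after the data were seen, the other probe sets of called genes gave 216 values over 107 pairs of gene and comparison. They had the same sign in 201 cases, by 1 or more in 121, and the opposite sign in 15, never by 1 or more. The remaining values of the same sign were smaller than 1, and some were near 0. In Lmx1a against Nkx2.2 neurons the other Sema4d probe sets differed by -0.05 and -0.002, beside 1.58. For Robo1 in the Nkx2.2 line with FGF8 they differed by -0.20 and -0.008, beside -1.44. For Epha5 in RA against FGF8 wild type they differed by -0.92, 0.45 and 1.62, beside 1.51.

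Partners of these ligands and receptors were counted from a list of 19 coreceptors and related guidance molecules and 32 cytoplasmic effectors, of which 50 genes were tested. Against wild type, 0 were higher and 3 lower in the Lmx1a line, 1 and 5 in the Nkx2.2 line with FGF8, 1 and 10 in the Olig2 line, and 2 and 15 in the Nkx2.2 line with RA, beside 3.31%, 4.53%, 10.4% and 18% of all genes in either direction. For the Lmx1a line, 3 of 50 partners is close to the share of all genes. Draxin, a secreted repellent that binds Dcc and netrin-1, was lower in all 4, by -1.82, -1.28, -1.0 and -2.05 in that order. Draxin had 0.10, 0.45 and 0.29 in the Olig2 line, against 1.29, 1.11 and 1.44 in RA wild type. Cntn2, an adhesion molecule of commissural axons, fell in the Nkx2.2 line (-2.67 with FGF8 and -2.93 with RA). Chl1, an adhesion molecule that interacts with neuropilin-1, fell by 4.68 ± 0.49 in the Olig2 line (adjusted p = 1.4e-05). Srgap1, which carries Robo signals to the cytoskeleton, fell in the Olig2 line (-1.69) and in the Nkx2.2 line with RA (-1.51), and Dpysl4, of the family that relays Sema3a signals, fell in the same groups (-1.03 and -2.84) and in the Nkx2.2 line with FGF8 (-1.40). Ntng1, a membrane-anchored relative of the netrins, rose by 2.25 in the Nkx2.2 line with RA.

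At day 14 against day 10 of the Lmx1a line 6 partners were higher and 1 lower, beside 4.24% of all genes in either direction, among them Draxin (1.29) and Flrt1, a ligand of Unc5 receptors (1.92), while Cntn2 fell by 2.85. With RA against FGF8 the counts were 1 higher and 2 lower in the Nkx2.2 line (4.31% of all genes) and 4 and 3 in wild type (7.4%). They were 2 and 2 for Lmx1a against Nkx2.2 neurons with FGF8 (5.07%), and 4 and 11 for the Nkx2.2 line with RA against the Olig2 line (13.1%). The counts for the Nkx2.2 line and for Lmx1a against Nkx2.2 neurons are close to the shares of all genes.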

How the data were processed

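The labels describe purified post-mitotic neurons in 7 groups of 3 arrays. The deposited values are log2 signals made by the authors with GCRMA, per the submitters' processing notes. Its version: not given in the sources used here. As deposited, they were also centred on each probe set's median, exactly 0 in 79.2% of probe sets, over 27 arrays, of which 21 were analysed here. Of 45101 probe sets 34945 had 1 gene symbol, giving 18193 genes read from the probe set with the largest SD, a choice that favours variable probe sets. Genes were fitted with limma 3.58.1 in R 4.3.3 on 7 group means over all 21 arrays, with Benjamini-Hochberg adjustment over 18193 genes. The members and lists were chosen with earlier results of these data known. Up to 12 rises and 12 falls per comparison, by size, were named, and arrays were given for up to 4 of each. The number of arrays limits the precision. The p-values set a difference against the spread between arrays within groups, pooled over all 7 groups. They do not cover the spread between clones, whose number the labels do not give. Scripts were tested on simulated data. Alternatives covered probe set choice, batch, array weights, thresholds and left-out arrays. All 71 members matched RefSeq by Entrez ID.

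Replicate numbers did not pair the arrays: the deviations of 63 same-numbered pairs had a mean correlation of 0.00603, against -0.00337 in 126 other pairs.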

Additional observations from a re-analysis of the deposited data

Results flagged for a closer look

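For 10 guidance genes the difference between the Nkx2.2 line and wild type itself differed between RA and FGF8, by the test of the difference of differences. Robo3 had a more positive line difference under RA, by 4.02 ± 0.67 (SE, adjusted p = 0.00321, limma). The other 9 had a more negative one. It was -3.59 for Unc5a, -3.11 for Sema5a, -2.76 for Nrp1, -2.49 for Nrp2 and -2.18 for Epha6. It was -1.93 for Efna5, -1.85 for Ephb6, -1.84 for Efna3 and -1.43 for Sema6b. Sema5a differed by -0.95 under RA and 2.16 under FGF8, Nrp2 by -1.49 and 1.00, and Unc5a by -3.30 and 0.29. Under RA the other Nrp2 probe sets differed by -0.74, -0.17 and -0.76. Within batch B 7 of the 10 were called, and Robo3 there had 3.71 (adjusted p = 0.0647). Wild type was sampled at different days with the 2 factors, so factor and day cannot be told apart.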

How the results depend on the processing

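Of 156 calls of a member in a comparison, 113 kept their call with the batch as a block, 131 without 3 doubted arrays (replicate 1 of the Lmx1a line at day 10, replicate 1 of the Nkx2.2 line with FGF8 and replicate 2 of FGF8 wild type), 128 with the mean of a gene's probe sets, 96 with only the arrays compared, 96 at an adjusted p under 0.01 and 150 with array weights. The counts of members called that moved by over 1.5 times were as follows, with the cause not tested. For the Lmx1a line against FGF8 wild type they were 24 with array weights, 7 at an adjusted p under 0.01 and 6 with only the arrays compared. For the Nkx2.2 line against FGF8 wild type they were 8 with the batch as a block, 9 without the doubted arrays, 25 with array weights, 7 at an adjusted p under 0.01, 8 with only the arrays compared and 4 within batch B. For the Olig2 line against RA wild type they were 15 at an adjusted p under 0.01 and 6 within batch B. For day 14 against day 10 they were 22 with array weights, 3 at an adjusted p under 0.01, 5 with only the arrays compared and 4 within batch A. For the Nkx2.2 line with RA against FGF8 they were 2 with the mean of probe sets, 8 without the doubted arrays, 19 with array weights, 8 with a filter on SD, 3 at an adjusted p under 0.01 and 0 with only the arrays compared (limma, 17 at an unadjusted p under 0.05). For RA against FGF8 wild type they were 11 with the batch as a block, 8 at an adjusted p under 0.01, 12 with only the arrays compared and 10 within batch B. For Lmx1a against Nkx2.2 neurons they were 4 with the batch as a block, 8 without the doubted arrays, 26 with array weights, 7 at an adjusted p under 0.01 and 1 with only the arrays compared. The Nkx2.2 line with RA against the Olig2 line gave 8 within batch B, and the difference of differences gave 29 with array weights, whose estimation did not converge in full.

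Leaving out 1 array gave 8 to 13 for the Lmx1a line and 7 to 18 for the Nkx2.2 line against FGF8 wild type, 16 to 25 for the Olig2 line and 23 to 26 for the Nkx2.2 line against RA wild type, 3 to 12 for day 14 against day 10, 3 to 8 for the Nkx2.2 line with RA against FGF8, 10 to 19 for wild type, 6 to 13 for Lmx1a against Nkx2.2 neurons, 18 to 27 for the Nkx2.2 line with RA against the Olig2 line, 8 to 14 for the difference of differences and 39 to 48 for the F test. The lowest counts came without replicate 1 of the Nkx2.2 line with FGF8 (7 and 6), replicate 1 at day 14 (3), replicate 1 of RA wild type (16) and replicate 3 of FGF8 wild type (10). With only probe sets without a suffix, Sema4f reversed to -0.19 in the Olig2 line and Sema6c to 0.013 in the Nkx2.2 line with RA, both against RA wild type.

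With the replicate number as a block 153 of 156 calls were kept. The counts were 12, 14, 24 and 26 for the Lmx1a line, the Nkx2.2 line with FGF8, the Olig2 line and the Nkx2.2 line with RA against wild type, and 46 for the F test. The lost calls were Slit1 in the Nkx2.2 line with FGF8, Robo3 in the Nkx2.2 line with RA and Epha10 in wild type.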
